A study of Mus musculus with 4 samples.

Results

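The regulatory genes of the mouse primitive streak were examined for nearby binding of MIXL1, a paired-type homeodomain protein made in the streak. The genes were Eomes, T, Mixl1, Mesp1, Mesp2, Tbx6, Evx1 and Msgn1. They were chosen by name, and a FLAG-MIXL1 peak was taken as near a gene when any part of it lay within 100 kb of the gene span. By this rule 11 of the 9598 peaks in the deposited list (0.115%) lay near the 8 genes. The peaks made 12 gene and peak pairs, because Mesp1 and Mesp2 shared 1 peak, and 7 of the 8 genes had at least 1. T had none.

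Chromatin came from EpiSC, or epiblast stem cells, mouse cells held in culture in the pluripotent state of the implanted epiblast. The series held 2 FLAG libraries, for which chromatin was captured with anti-FLAG M2, and 2 libraries of input chromatin. Cells of all 4 libraries had an inducible Mixl1 gene and had been maintained on irradiated feeder fibroblasts in medium with activin A (20 ng/mL) and bFGF (10 ng/mL). All were then taken through 2 days of serum differentiation in embryoid bodies, with doxycycline at 1 µg/mL for the final 24 h. The FLAG-MIXL1 protein was thus made under control of the drug and not under that of the streak. The labels give neither the strain nor the number of cell lines. Whole embryoid bodies were used, and the list cannot show which of their cells carried a peak. It holds positions only, as 1 list for the whole series, so no value below has a replicate error, the depth is unknown, and the cell type could not be checked against marker genes.

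The primitive streak is the site where epiblast cells leave the epithelium and become mesoderm or definitive endoderm. T-box factors (Eomes, T, Tbx6) direct the fates of these cells. Basic helix-loop-helix factors (Mesp1, Mesp2, Msgn1) act in the mesoderm that has just formed, and homeodomain factors (Mixl1, Evx1) are made in the streak itself. Homeodomains of the paired type bind the core letters TAAT and can bind as pairs to palindromes of that core.

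A peak near a gene was common, which sets how the counts can be read. Of 21523 protein-coding genes, 52.8% had a peak within 100 kb, so 7 of 8 was above the background without being rare for any single gene. The distances describe the same peaks in another way and were short. The nearest peaks of the 8 genes lay at a median of 14.2 kb, against 89.3 kb over all protein-coding genes, and 5 of the 8 had a peak within 20 kb, against 24.7% of protein-coding genes. The 8 genes are short, with spans of 567 to 8074 bp against a median of 17.4 kb over all protein-coding genes, so a peak had less chance to fall inside them. Among the 11578 protein-coding genes of at most 20 kb, 47.9% had a peak within 100 kb and the median distance was 109 kb. The count stayed at 7 of 8 within 50 kb, where 37.5% of protein-coding genes had a peak, and was 8 of 8 within 200 kb, where 70.3% had one. With the wider 50% of the peaks it was 5 of 8, against 32.1%. The genes and the rule were chosen with earlier results in view and Mesp1 and Mesp2 are not independent, so these shares are descriptions without a test.

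**Figure D1:**
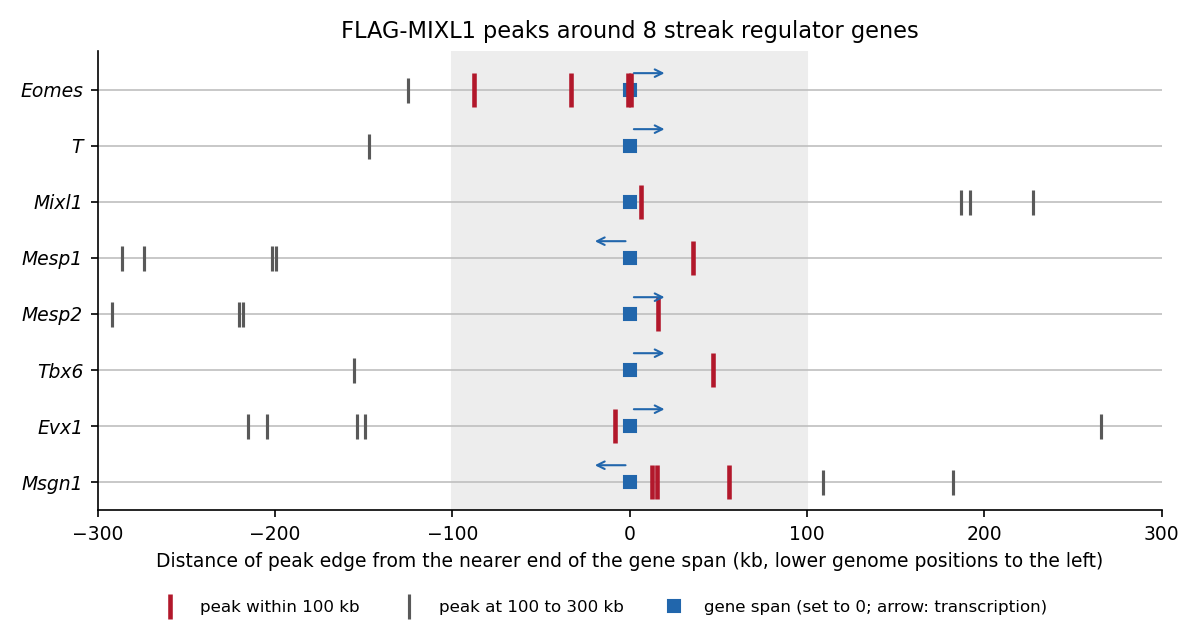
Peaks within 300 kb of the 8 genes, with the distance of the peak edge from the nearer end of the gene span in kb on the horizontal axis and 1 gene per row; red marks are peaks within 100 kb (shaded), grey marks lie farther out, and arrows give the direction of transcription where the start site table has the gene. Eomes has 4 red marks, of which 2 sit at 0.836 and 0.777 kb on either side of the gene and merge at this scale, whereas T has none inside the shaded range.

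Eomes encodes the T-box factor that definitive endoderm, and the exit of cells from the epiblast, depend on. It had the most peaks and the closest one. Its span lies at chr9:118478186-118486132 (mm10, plus strand), with the start of transcription at the lower end. Peaks stood on both sides of the gene. The first, at chr9:118477047-118477350 and 304 bp wide, ended 0.839 kb upstream of the start site. The other, at chr9:118486909-118487335 and 427 bp wide, began 0.777 kb beyond the far end of the gene. No peak overlapped the gene itself, so the gene filled most of the 9.56 kb stretch between this pair. Farther upstream were peaks at chr9:118444788-118445282, 32.9 kb from the gene, and at chr9:118389912-118390494, 87.7 kb from it. Thus 3 of the 4 peaks were upstream and 1 was downstream. At least 4 peaks within 100 kb were found for 7.1% of protein-coding genes and for 4.91% of the 1201 protein-coding genes of chromosome 9. A peak as close as that of Eomes, or overlapping the gene, was found for 13.5% of protein-coding genes and for 5.1% of those of at most 20 kb.

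Eomes was the nearest protein-coding gene of all 4 of its peaks. Only Golga4, which encodes a golgin of the trans-Golgi network and lies 20.1 kb away, shared any of them, with 3 of the 4 inside its own 100 kb. The same peaks looked different once noncoding genes were counted. The peak upstream of the start site lay in the lncRNA gene Gm33408, the peak beyond the far end in the lncRNA gene Gm33460, and the peak at 32.9 kb in the overlapping lncRNA genes Platr11 and Gm33285. That at 87.7 kb lay outside genes, 11.8 kb from Platr11. These 3 were the only peaks of the 11 whose centre lay in noncoding genes alone.

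Promoter letters are shown for 3 genes that span the range of results: Eomes with peaks at both ends, Tbx6 with a peak at a distance, and T with none within 100 kb. Each window is the 250 bases before the RefSeq start site on GRCm38.p6, the assembly that mm10 denotes, with TAAT and its complement ATTA in capitals. The windows are chr9:118477939-118478188 (plus strand) for Eomes, chr7:126781233-126781482 (plus strand) for Tbx6 and chr17:8434173-8434422 (plus strand) for T.
Eomes: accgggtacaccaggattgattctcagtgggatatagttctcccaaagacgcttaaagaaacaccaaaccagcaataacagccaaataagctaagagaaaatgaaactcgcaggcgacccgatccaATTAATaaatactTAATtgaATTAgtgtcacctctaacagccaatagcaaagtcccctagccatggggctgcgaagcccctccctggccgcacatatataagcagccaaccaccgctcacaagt
Tbx6: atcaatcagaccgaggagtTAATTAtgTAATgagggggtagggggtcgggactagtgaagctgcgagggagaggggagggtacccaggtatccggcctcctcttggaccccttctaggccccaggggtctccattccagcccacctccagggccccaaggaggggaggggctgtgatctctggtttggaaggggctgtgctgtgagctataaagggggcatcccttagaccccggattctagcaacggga
T: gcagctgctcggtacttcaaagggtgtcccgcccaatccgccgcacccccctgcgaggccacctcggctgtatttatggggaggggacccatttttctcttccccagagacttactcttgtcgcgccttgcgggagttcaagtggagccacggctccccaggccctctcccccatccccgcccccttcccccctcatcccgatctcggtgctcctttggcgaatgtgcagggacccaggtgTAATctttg

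The Eomes window held 4 matches to TAAT on either strand, of which the first 2 overlap. The last 2 together form a palindrome in which TAAT is followed after any 3 bases by ATTA, a form that pairs of paired-type homeodomains are known to bind. Its letters are TAATTGAATTA at chr9:118478078-118478088, which begins 111 bases before the start site. Of 21045 promoter windows of protein-coding genes, 49.3% held at least 1 TAAT, 8.36% held 4 or more, and 76 (0.361%) held this palindrome. The window is also poorer in G and C than most, at 46.4% against a median of 55.6%, and AT-rich sequence holds more TAAT by composition. The palindrome lay 0.728 kb from the edge of the upstream peak and the peak did not overlap the window. Tbx6 had 3 matches, all near the far end of its window and the first 2 overlapping, and 14.7% of windows had as many. T had 1 match, 9 bases before its start site. Mesp2, Evx1 and Msgn1 had 2 matches each and Mesp1 had 1. None of these 6 windows held the palindrome with 3 bases between, and none of the 7 held the form with 2 bases between, found in 0.309% of promoters. Mixl1 is not among the promoters of the table. Of the 7 windows 0 were overlapped by a peak, against 1.24% of all windows. Genome sequence under the peaks was not used here.

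Letters of other streak factors were searched on both strands in the same windows. CTTTGAT, a sequence bound by TCF factors of the Wnt pathway, occurred once in Mesp1, once in Msgn1, where it overlaps a TAAT match, and in 2.85% of all windows. AGGTGTGA of T-box factors, TGTGGATT of FOXH1 and GTCTAGAC of SMAD proteins were in 0 of the 7 windows and in 1.01, 0.67 and 0.185% of all windows. A match describes letters and says nothing of binding.

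T (brachyury), the T-box gene of posterior mesoderm and notochord, was the only one of the 8 without a peak within 100 kb. Its span lies at chr17:8434423-8442496 (plus strand). The nearest peak, at chr17:8287128-8287367, was 147 kb upstream and lay inside Mpc1, which encodes a subunit of the mitochondrial pyruvate carrier. This peak was 240 bp wide, the smallest width in the list, which 35 peaks had. On the other side the nearest peak was 593 kb away. T thus stood in a peak-free stretch of 748 kb that held 7 other protein-coding genes, among them Pde10a and T2. A stretch without peaks as long as this surrounded 36.3% of protein-coding genes, so the absence at T was not an extreme one. On chromosome 17, 67.4% of protein-coding genes had a peak within 100 kb and 76.3% had one as close as that of T.

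Tbx6, the T-box gene that commits cells to paraxial mesoderm, had 1 peak within 100 kb. Its span lies at chr7:126781483-126785548 (plus strand) and the peak at chr7:126832469-126832764, 46.9 kb downstream of the gene and 296 bp wide, the narrowest of the 11. Tbx6 was not the nearest gene. The peak lay 1.08 kb from 4930451I11Rik, and 14 protein-coding genes in all stood within 100 kb of it. Ppp4c, the catalytic subunit gene of protein phosphatase 4, together with Ypel3 and Gdpd3, were the closest neighbours of Tbx6 to share the peak. All 15 protein-coding genes within 100 kb of Tbx6 had a peak by the same rule. The stretch without peaks around Tbx6 measured 207 kb and held 12 other protein-coding genes.

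The Mixl1 gene itself had 1 peak. Its span lies at chr1:180693043-180697034, and the peak at chr1:180703455-180703910, 456 bp wide and 6.42 kb beyond the higher end. No peak overlapped the Mixl1 span. A peak as close was found for 17.2% of protein-coding genes and for 9.32% of those of at most 20 kb. The peak lay outside genes of every type and Mixl1 was the nearest gene, coding or noncoding. Lin9, a component gene of the DREAM complex, lies 2.36 kb from Mixl1 and also had the peak within its 100 kb, as did Acbd3 and H3f3a. Toward lower positions the next peak was 380 kb from Mixl1.

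Evx1, an even-skipped homeobox gene of the posterior streak that lies beside the HoxA cluster, also had 1 peak close by. The span is chr6:52313498-52318389 (plus strand), and the peak, at chr6:52304528-52305076 and 549 bp wide, was 8.42 kb upstream of the start site. A peak as close was found for 18.3% of protein-coding genes and for 10.6% of those of at most 20 kb. Evx1 was the nearest protein-coding gene, while the lncRNA gene Evx1os was 3.59 kb from the peak centre. Hoxa13, Hoxa11 and Hoxa10, homeobox genes of the posterior end of the cluster, were the closest of 8 protein-coding genes to share the peak within 100 kb. Downstream of Evx1 no peak was listed for 266 kb.

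Among the basic helix-loop-helix genes, Mesp1 and Mesp2 had 1 and the same peak. Mesp1, a gene of the earliest cardiac mesoderm, lies at chr7:79792241-79793590 (minus strand), and Mesp2, a gene of somite segmentation, at chr7:79810727-79813431 (plus strand), 17.1 kb from it. The peak at chr7:79829130-79829748, 619 bp wide, was 35.5 kb from Mesp1 and 15.7 kb from Mesp2. Since the genes are read in opposite directions, the peak was upstream of Mesp1 and downstream of Mesp2. It lay inside Anpep, the aminopeptidase N gene, and 8 protein-coding genes in all were within 100 kb of it, among them Wdr93. The next peak toward the other side was 199 kb from Mesp1, so the pair stood in a stretch of 236 kb without a peak.

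Msgn1, the mesogenin gene of presomitic mesoderm, had 3 peaks, all upstream. It spans chr12:11208382-11208948 (minus strand). The peaks were at chr12:11221608-11222501 (894 bp wide, the widest of the 11), chr12:11224450-11225009 (560 bp) and chr12:11264908-11265247 (340 bp), at 12.7, 15.5 and 56.0 kb from the gene. The first 2 were 1.95 kb apart. Downstream no peak was listed for 653 kb. At least 3 peaks within 100 kb were found for 13.7% of protein-coding genes, but for 60.9% of the 678 protein-coding genes of chromosome 12, where 91.2% had at least 1. A peak as close as that of Msgn1 was found for 20.7% of protein-coding genes over all chromosomes and for 51.3% of those on chromosome 12. Both its count and its distance were thus close to those of the middle gene of chromosome 12. Msgn1 was the nearest protein-coding gene of the first peak. Gen1, which encodes a Holliday junction resolvase, was nearest to the second and contained the third. Gen1 and Smc6, a gene of the SMC5/6 complex, had all 3 of the peaks within their 100 kb, and Kcns3 had 2.

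**Figure D2:**
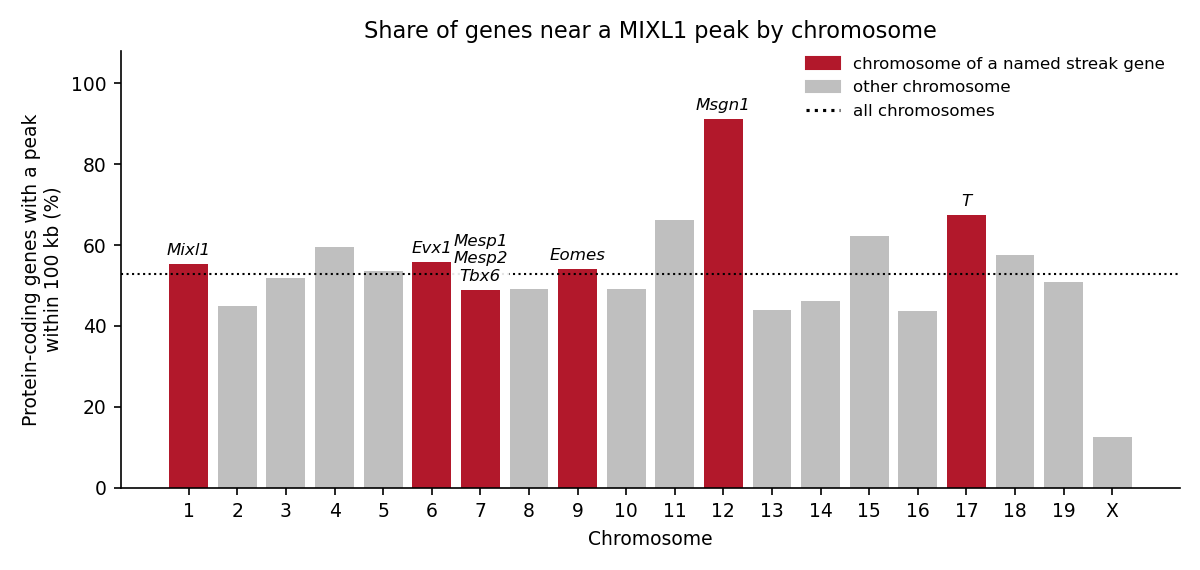
Share of protein-coding genes with a peak within 100 kb (%, vertical axis) for each chromosome, with red bars for chromosomes that carry a streak regulator gene and a dotted line for all chromosomes together at 52.8%. Chromosome 12, with Msgn1, stands at 91.2%, whereas chromosomes 1, 6, 7 and 9, with 6 of the other genes, lie between 48.9 and 55.9%.

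Placed in order of distance, the nearest peaks of Eomes (0.777 kb), Mixl1 (6.42 kb), Evx1 (8.42 kb), Msgn1 (12.7 kb) and Mesp2 (15.7 kb) came first, then those of Mesp1 (35.5 kb), Tbx6 (46.9 kb) and T (147 kb). Of the 8 genes, 7 were closer to a peak than the median gene at 89.3 kb, a cut close to the 100 kb of the rule. With no signal or replicate, the list gives no spread by which neighbours in this order could be told apart.

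**Figure D3:**
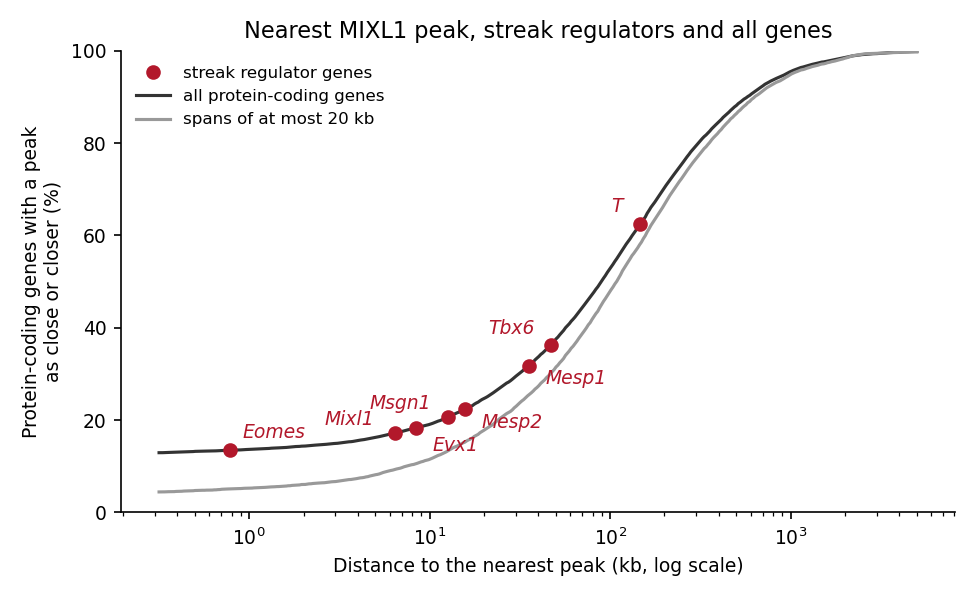
Cumulative share of protein-coding genes (%, vertical axis) with a peak as close as the distance on the horizontal axis (kb, log scale), for all genes and for genes of at most 20 kb; genes that a peak overlaps enter at the left edge, and red points place the streak regulator genes on the curve of all genes. Eomes sits at 13.5% and T at 62.4%, with the other 6 between 17.2 and 36.3%.

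Width, spacing, place in genes and side of the peaks were set against the whole list. Overlap with the 8 genes and distances at the limit belong to the rule itself. Place in genes is not independent of the rule either, because the peaks were picked by their distance from these 8 genes. Whether the short spans of the 8 genes bear on it was not tested. The widths of the 11 peaks had a median of 495 bp (296 to 894 bp), against 485 bp over the 9403 peaks on chromosomes (quartiles 350 and 726 bp), so they were peaks of ordinary size. Of the 11, 4 had another peak within 10 kb, against 30.3% of the list, and these were the pair at the ends of Eomes and the first pair at Msgn1. By their centres 2 lay inside protein-coding genes, 3 in noncoding genes only and 6 outside genes, against 45.9, 13.7 and 40.4% of the list. None overlapped a gene of the 8, while 12.6% of all protein-coding genes and 4.06% of those of at most 20 kb were overlapped by a peak. In the 11 pairs of a gene and a peak for which the strand was known, the peak was upstream in 8 and downstream in 3. Eomes and Msgn1 supplied 6 of the 8 upstream pairs, and the peak shared by Mesp1 and Mesp2 counts on either side. Over 13791 such pairs of protein-coding genes with 1 listed start site, 49.6% were upstream. The peak just inside the limit of 100 kb was the one at 87.7 kb from Eomes, and the one just outside was 109 kb from Msgn1.

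Among genes outside the 8, those that induce the streak had a larger share within 100 kb of a peak than those of the mesoderm that leaves it, a difference that was not tested. It was gone within 200 kb, where 18 of 21 inducing genes (85.7%) and 17 of 20 mesoderm genes (85.0%) had a peak. Of 21 genes of the inducing signals (Nodal, Wnt, BMP and FGF pathways), 17 (81.0%) had a peak within 100 kb. The share over all protein-coding genes was 52.8%. The median distance of the 21 genes was 28.2 kb. The closest 4, all overlapped by a peak, were Lef1, a TCF-family factor gene, with 3 peaks within 100 kb, the receptor gene Fgfr1 and the ligand gene Wnt3a with 2 each, and Foxh1, the gene of a SMAD partner, with 1. Smad4 was overlapped as well, so 5 of the 21 had a peak in their span, against 12.6% of all protein-coding genes. Without a peak within 100 kb were Ctnnb1, Bmpr1a, Lrp6 and Wnt3, the last at 485 kb. The 21 genes had a median span of 36.9 kb, against 17.4 kb over all protein-coding genes. Whether length bears on their share was not tested.

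Among 20 genes of nascent and paraxial mesoderm, 6 (30.0%) had a peak within 100 kb, against 52.8% of all protein-coding genes. The median distance of the 20 genes was 131 kb. The closest were Aplnr, the apelin receptor gene, and Epha4, an ephrin receptor gene, both overlapped by a peak, then Evx2, the relative of Evx1 beside the HoxD cluster, at 3.82 kb and Lfng, a Notch modifier gene of the segmentation clock, at 27.3 kb. The remaining 14 had none, among them the Notch ligand gene Dll1 at 110 kb, Snai1 at 153 kb and Rspo3 at 1040 kb. The median span of the 20 genes was 7.28 kb. Of protein-coding genes of at most 20 kb, 47.9% had a peak within 100 kb and 4.06% were overlapped by a peak. Cdx4 and Ripply1 lie on chromosome X, where 12.6% of protein-coding genes had a peak.

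Of 14 other T-box genes 9 (64.3%) had a peak within 100 kb, with a median distance of 72.6 kb and none overlapped. Tbx2 was closest at 17.6 kb with 4 peaks, followed by Tbx21 at 18.7 kb with 2, Tbx15 at 22.1 kb and Tbx19 at 28.0 kb with 1 each. Eomes, at 0.777 kb, was thus the T-box gene nearest to a peak among those listed, while Tbr1, its relative of the developing cortex, had its nearest peak at 401 kb. Within 100 kb, the share was above the 52.8% of all protein-coding genes for the inducing signals and for T-box genes and below it for the mesoderm genes, but for T-box and mesoderm genes the direction depended on the window. Within 50 kb the T-box list had 4 of 14 genes (28.6%) near a peak, below the 37.5% of all genes. Within 200 kb the mesoderm list had 17 of 20 (85.0%), above the 70.3% of all genes. The inducing signals stayed above the background in the windows of 50, 100 and 200 kb. The lists were not compared by a test. No listed gene lies within 100 kb of one of the 8.

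**Figure D4:**
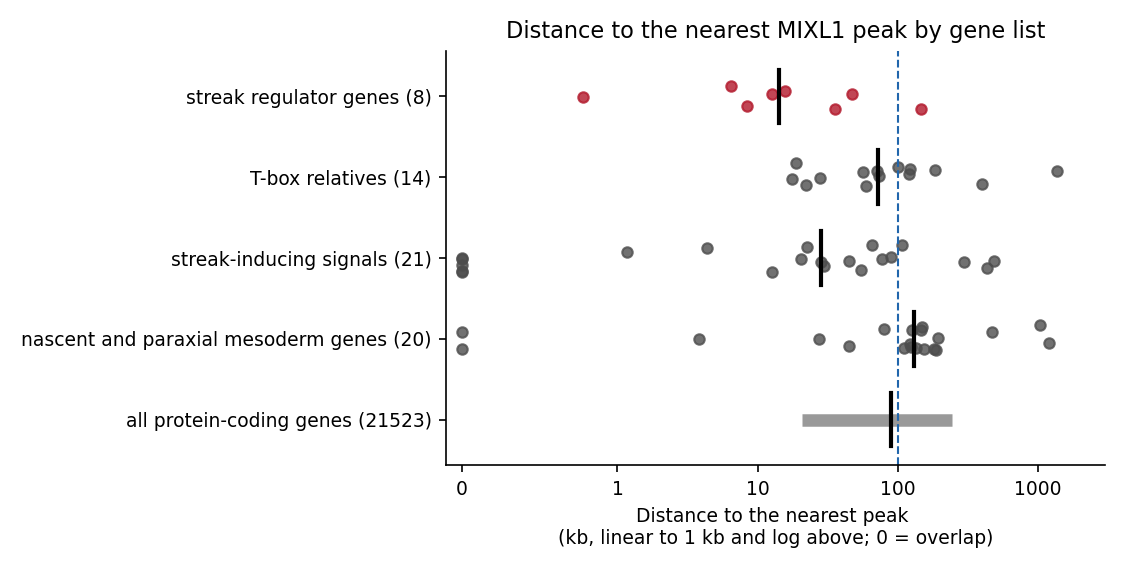
Distance to the nearest peak (kb, horizontal axis, linear to 1 kb and logarithmic above, with 0 for overlap) for the 8 streak regulator genes, the 3 lists and all 21523 protein-coding genes; each point is a gene, black bars are medians, the grey bar spans the quartiles of 20.7 and 245 kb, and the dashed line marks 100 kb. The medians are 14.2 kb for the streak regulators, 72.6 kb for T-box relatives, 28.2 kb for inducing signals, 131 kb for mesoderm genes and 89.3 kb for all genes.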

How the data were processed

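FLAG-MIXL1 ChIP-seq covered 2 FLAG and 2 input libraries. Per the submitters' processing notes, the tools were MACS2, Bowtie2, SAMtools and CASAVA 1.8.2, with mm10 as build. Not given in the sources used here are threshold, filters, use of input and pooling. The authors deposited 1 list of peak starts and ends with no score, so no depth, interval over replicates or replicate test could be had. Genes came from the NCBI RefSeq table of GRCm38.p6 on chromosomes 1 to 19 and X, without those starting in the first 3 Mb (49214 genes, 21523 protein-coding). That table gives spans without strand; strand and start sites came from the RefSeq promoter table, which holds 7 of the 8 genes. Distance runs from the peak edge to the nearer end of the span (0 for overlap), and the nearest gene of a peak is taken from its centre. Positions are 1-based. The genes, lists and rules were chosen with earlier results of these data known. Named genes are the 8, the nearest and peak-sharing genes of their peaks, and the 4 closest genes of each list; further list genes were named after their values were seen. Alternatives were windows of 50 and 200 kb, peak centres, start sites, the wider 50% of peaks and other gene sets. The distance routine was tested on simulated peaks. Python 3.11.15, numpy 2.4.6, pandas 2.3.3 and matplotlib 3.10.9 were used.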

Additional observations from a re-analysis of the deposited data

How the results depend on the processing

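Of 83 alternative values, 59 stayed within 1.5 times the reported value or, for the background share, within 52.1 to 53.5%, and 24 did not. That range is a Wilson interval that counts genes as independent, though neighbours share peaks, so it served only as a cut. Some alternatives, such as the peak centre, could move a value only a little. Genes near a peak numbered 7 of 8 within 50 kb, where 37.5% of protein-coding genes had one, and 8 of 8 within 200 kb, where 70.3% had one. With 200 kb, T gained 1 peak, Mesp1 and Tbx6 had 2 each, Mixl1 and Evx1 3 each, Msgn1 5 and the 8 genes together 21, and the lists reached 17 of 20 for mesoderm genes, 18 of 21 for inducing signals and 12 of 14 for T-box genes, so that the mesoderm list turned from below to above the background. With 50 kb the T-box list fell to 4 of 14, which turned it below the background. The wider 50% of the peaks, in place of a missing score, left 6 peaks and 5 genes (background 32.1%), with 2 at Eomes and 0 at Mixl1 and Tbx6; the nearest peak then lay 32.9 kb from Eomes, 187 kb from Mixl1, 584 kb from Tbx6 and 521 kb from T, and the inducing signals fell to 11 of 21. Both peaks at the ends of Eomes were thus among the narrower ones. The background was 49.1% with genes of every type and 47.9% for genes of at most 20 kb. Of the 8 genes, 4 were the nearest protein-coding gene of their nearest peak and 2 the nearest of any type. No paired analysis was possible because the list holds no value per library, and no replicate could be left out for the same reason. No depth is known, so a missing peak means only that none was listed.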

Other observations

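Further peaks lay between 100 and 300 kb from the 8 genes, and some of these were nearest to genes outside the 8. The peaks at 187 and 192 kb from Mixl1 had Lefty2 as their nearest protein-coding gene and the one at 228 kb had Lefty1, both genes of Nodal inhibitors. Eomes had a further peak at 125 kb, 249 bp wide, with Eomes still the nearest protein-coding gene and the lncRNA gene Gm33088 at 6.7 kb. On the lower side of Mesp1, the pair of peaks at 199 and 202 kb was nearest to Rhcg, an ammonium transporter gene. The pair at 274 and 286 kb lay inside the lncRNA gene Mir9-3hg, with Polg, the mitochondrial DNA polymerase gene, as the nearest protein-coding gene. The peak at 156 kb from Tbx6 had Nupr1 as its nearest protein-coding gene and lay inside the lncRNA gene Gm39087. That at 266 kb from Evx1 lay inside Hibadh, and those at 109 and 182 kb from Msgn1 lay inside Smc6 and Vsnl1. Not every peak in this range is named.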
